A study of Mus musculus with 3 samples.

Results

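The genes described here are 10 transcription factors of the primitive streak and nascent mesoderm: T, Eomes, Mixl1, Evx1, Gsc, Lhx1, Mesp1, Mesp2, Msgn1 and Tbx6. They were taken as a list by gene symbol, matched through Entrez Gene identifiers, out of 17209 genes listed in at least 1 table. In NT 10 of the 10 were listed, in IWR1 7 and in Y27 9. The cells were mouse EpiSCs (epiblast stem cells) of strain 129 at passage 1, pluripotent cells that resemble the post-implantation epiblast. They were grown on gelatin with serum, IWR1 and Y27632 (here Y27). IWR1 stabilises Axin through tankyrase inhibition and so dampens Wnt signalling. For the NT library both inhibitors were withdrawn overnight. The IWR1 library was made after 12 h in 2 µM IWR1, the Y27 library after 12 h in 0.5 µM Y27. The labelled Y27 dose lies under those commonly used, and no other source was at hand to check its unit. The labels leave unsaid if an inhibitor-free period came before treatment, so a difference from NT covers withdrawal in NT as well as treatment. The 3 groups share the earlier culture with both inhibitors.

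The primitive streak forms at the posterior side of the epiblast, where Wnt3 and Nodal act together and epiblast cells leave the epithelium to become mesoderm and endoderm. T (brachyury) and Eomes are T-box factors that start this programme. T is a known target of beta-catenin with TCF/LEF factors, and Eomes responds to Nodal. EpiSCs can express streak genes while they stay pluripotent. Among the other members, Mixl1 and Evx1 are homeobox factors of the streak, Gsc and Lhx1 are homeobox factors of the anterior streak and the organiser, Msgn1 and Tbx6 act in presomitic mesoderm, and Mesp1 and Mesp2 are basic helix-loop-helix factors of cardiac and segmenting mesoderm.

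Because a group is a single library, none of the differences has a replicate check and none was tested. Total estimated counts were 5767550 (NT), 5607725 (IWR1) and 5459332 (Y27). Levels are given as counts per library size (CPM), or the deposited FPKM where different genes are set side by side. Ranges in parentheses are 95% intervals that cover counting error only. A log2 difference is log2((CPM + 1)/(CPM + 1)), a scale that shrinks differences of low genes, and 2-fold is counted on it. All 10 epiblast stem cell markers, among them Pou5f1, Nanog, Sox2 and Fgf5, were listed in every library, with a summed FPKM of 1580 in Y27, 1745 in NT and 2018 in IWR1. In bulk RNA, fewer cells that express a gene and less of its RNA per cell cannot be told apart.

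In NT, T had by far the highest level per length of the 10 genes, with 808 FPKM, and stood at rank 103 of 15623 listed genes. Eomes followed with 42.2 FPKM, Msgn1 with 34.6 FPKM and Evx1 with 29.9 FPKM. The counting interval of Eomes overlapped that of Msgn1, and that of Msgn1 overlapped that of Evx1. Gsc (5.79 FPKM), Mixl1 (4.6 FPKM) and Lhx1 (4.58 FPKM) formed a lower group whose intervals overlapped from each to the next. Tbx6 was at 1.51 FPKM. Mesp1, with 4 counts and 0.640 FPKM, and Mesp2, with 1 count and 0.090 FPKM, were near the limit of these libraries. Of the 10 genes, 8 passed the level filter (1 CPM or more on average over the libraries), and Mesp1 and Mesp2 did not.

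The order of levels in the Y27 library began with the same 4 genes, T at 826 FPKM, Eomes at 55.6 FPKM, Msgn1 at 47.5 FPKM and Evx1 at 31.2 FPKM. In the IWR1 library T (178 FPKM) and Eomes (24.8 FPKM) were still the highest. The third place was held by Gsc with 3.21 FPKM, beside Evx1 with 2.84 FPKM, and their intervals overlapped. Msgn1 came last of the 7 listed genes with 0.330 FPKM from 1 count. T made up 86.7% of the summed FPKM of the 10 genes in NT, 84.1% in IWR1 and 84.6% in Y27, while the sum itself was 932, 211 and 977 FPKM.

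**Figure D1:**
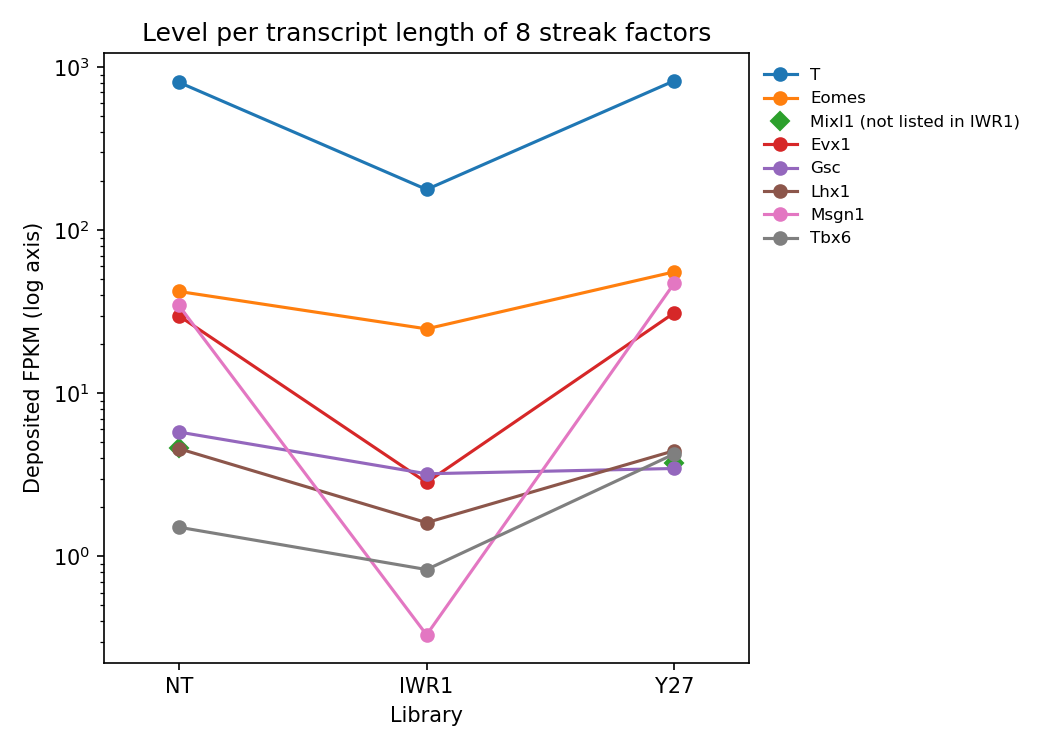
Deposited FPKM (log axis) of the 8 genes past the level filter in the NT, IWR1 and Y27 libraries, 1 library each. Lines join the values of 1 gene, and Mixl1, which was not listed in IWR1, has points only. T lies highest in every library, and the lines of Msgn1 and Evx1 dip most in IWR1.

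T and Msgn1, whose levels were lower in IWR1, are genes for which Wnt regulation through TCF/LEF factors is well known, so the bases before the start of 4 members are shown, from RefSeq on GRCm38.p6. Promoters were found for 9 of the 10 members (not for Mixl1). Capitals mark matches to CTTTGAT or CTTTGAA, cores bound by TCF/LEF factors, on either strand. The motifs do not overlap in these windows. T and Msgn1 hold matches, Evx1, also far lower in IWR1, holds none, and Mesp1, with at most 4 counts, holds both motifs. The windows are the 250 bases before the start of T (chr17:8434173-8434422, plus strand), Msgn1 (chr12:11208949-11209198, minus strand), Evx1 (chr6:52313248-52313497, plus strand) and Mesp1 (chr7:79793591-79793840, minus strand), each written 5′ to 3′ on the strand of the gene.
T: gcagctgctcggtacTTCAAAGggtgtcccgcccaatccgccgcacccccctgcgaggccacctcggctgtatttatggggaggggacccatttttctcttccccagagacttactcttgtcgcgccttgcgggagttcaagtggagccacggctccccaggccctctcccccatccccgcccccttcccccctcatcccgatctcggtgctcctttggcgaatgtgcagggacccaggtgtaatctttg
Msgn1: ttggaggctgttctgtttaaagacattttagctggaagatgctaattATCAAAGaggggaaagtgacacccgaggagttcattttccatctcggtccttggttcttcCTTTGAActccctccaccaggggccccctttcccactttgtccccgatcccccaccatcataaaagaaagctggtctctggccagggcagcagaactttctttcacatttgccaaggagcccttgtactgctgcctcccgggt
Evx1: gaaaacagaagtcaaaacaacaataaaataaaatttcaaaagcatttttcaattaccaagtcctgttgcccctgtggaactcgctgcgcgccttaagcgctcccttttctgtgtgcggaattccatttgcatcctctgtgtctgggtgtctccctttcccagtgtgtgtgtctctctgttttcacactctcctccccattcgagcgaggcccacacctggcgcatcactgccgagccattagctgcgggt
Mesp1: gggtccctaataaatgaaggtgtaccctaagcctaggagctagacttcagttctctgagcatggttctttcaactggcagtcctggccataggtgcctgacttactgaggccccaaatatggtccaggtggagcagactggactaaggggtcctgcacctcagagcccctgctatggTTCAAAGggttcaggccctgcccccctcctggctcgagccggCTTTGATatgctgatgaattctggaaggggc

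Of the 9 members with a promoter, 2 (Msgn1 and Mesp1) held CTTTGAT and 3 (T, Msgn1 and Mesp1) held CTTTGAA in these windows. Among 32851 promoter entries of the same length, 3.21% held the first and 4.46% the second. The first base of the T match lay at position -235 counted from the gene start. Those of the Msgn1 matches lay at -203 and -143, and those of the Mesp1 matches at -73 and -31. Searches for GGTGTGA, a T-box motif, and AATNCACA, a FOXH1 motif, matched 0 of the 9 members, against 3.33% and 3.18% of all entries. A match is a run of letters and not a measured site, and the lack of one covers these windows alone.

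The first comparison, IWR1 over NT, asked how the streak factors differed between cells under IWR1 and cells kept overnight without inhibitors. The 10 genes were all below their NT level in the IWR1 library, but by very different amounts. Of the 10, T, Mixl1, Evx1, Lhx1 and Msgn1 (5 genes) were lower by 2-fold or more and 0 were higher, against 2.25% lower and 2.28% higher among the 12955 genes compared. The median log2 difference of the 10 was -1.07, beside 0.00 over all genes compared. Over all genes, 292 were lower and 295 higher past 2-fold. Among the 12453 genes with a GC content, 268 were lower and 270 higher, and 255 and 167 after removal of the trend with length and GC content of transcripts, a share of higher genes of 50.2% before and 39.6% after.

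T had 9542 counts in NT, 2039 in IWR1 and 9217 in Y27, or 1688, 364 and 1652 CPM. It was high in NT and Y27 and lower in IWR1, and even there it stood at rank 387 of 15720 listed genes. T took 0.165% of all counts in NT, 0.0364% in IWR1 and 0.169% in Y27. The fold of IWR1 against NT was 4.63 lower (4.42 to 4.86), a log2 difference of -2.21 at rank 27 from the lowest of 12955.

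Eomes, the other early T-box factor, had 914, 522 and 1137 counts in NT, IWR1 and Y27, or 162, 93.3 and 204 CPM. It was lowest in IWR1 and highest in Y27. It was 1.73-fold lower in IWR1 than in NT (1.56 to 1.93), a log2 difference of -0.79, short of 2-fold, and its interval lay apart from that of T. The ratio of T to Eomes, in FPKM, was 19.2 in NT, 7.16 in IWR1 and 14.9 in Y27. Eomes made up 4.52% of the summed FPKM of the 10 genes in NT and 11.7% in IWR1. Its counts were not whole and its entry covers several transcripts, so its values carry the authors' sharing of reads.

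Msgn1, a basic helix-loop-helix factor needed for presomitic mesoderm, had 108 counts in NT, 1 in IWR1 and 140 in Y27, or 19.1, 0.179 and 25.1 CPM. It was nearly absent from the IWR1 library and clearly present in the others. The ratio of NT to IWR1 was 107 (18.8 to 4263), and its log2 difference of -4.09 stood at rank 1 from the lowest of 12955. That place rests on 1 count and on the pseudocount of 1, since Mixl1 was lower than Msgn1 with a pseudocount of 0.1 (-6.77 against -6.11) and Evx1 was lower with 5 (-2.82 against -2.22). Mixl1 had 61 counts in NT (10.8 CPM), 47 in Y27 (8.42 CPM), and was not listed in IWR1. Against a floor of 3 counts in IWR1 it was at least 20.1-fold lower than in NT. Evx1 had 499, 46 and 492 counts in NT, IWR1 and Y27, or 88.3, 8.22 and 88.2 CPM, so that NT and Y27 were nearly equal and IWR1 far below. It was 10.7-fold lower in IWR1 (7.93 to 14.9). In FPKM, T stood 62.6-fold above Evx1 in IWR1 and 26.5-fold above it in Y27.

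The anterior streak factors had smaller folds than T, Msgn1, Mixl1 and Evx1, though the fold of Lhx1 was larger than that of Eomes. The interval of Lhx1 overlapped those of T and Eomes, and the interval of Gsc overlapped that of Eomes. Lhx1, a LIM homeobox factor needed for head formation, had 73, 25 and 67 counts in NT, IWR1 and Y27, or 12.9, 4.47 and 12.0 CPM. It was 2.89-fold lower in IWR1 than in NT (1.81 to 4.75), a log2 difference of -1.35, which a pseudocount of 5 brought to -0.92, short of 2-fold. Gsc, the organiser homeobox factor, had 39, 21 and 22 counts in NT, IWR1 and Y27, or 6.90, 3.75 and 3.94 CPM. It was about as low in Y27 as in IWR1 and highest in NT. The fold of IWR1 against NT was 1.84 lower (1.06 to 3.29). Tbx6 had 15 counts in NT and 8 in IWR1, a 1.86-fold lower level whose interval of 0.739 to 5.06 includes no difference. Mesp1 had 4 counts in NT and was not listed in IWR1, at least 1.32-fold lower against the floor. For Mesp2, with 1 count in NT and none in IWR1 and Y27, no fold is given.

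**Figure D2:**
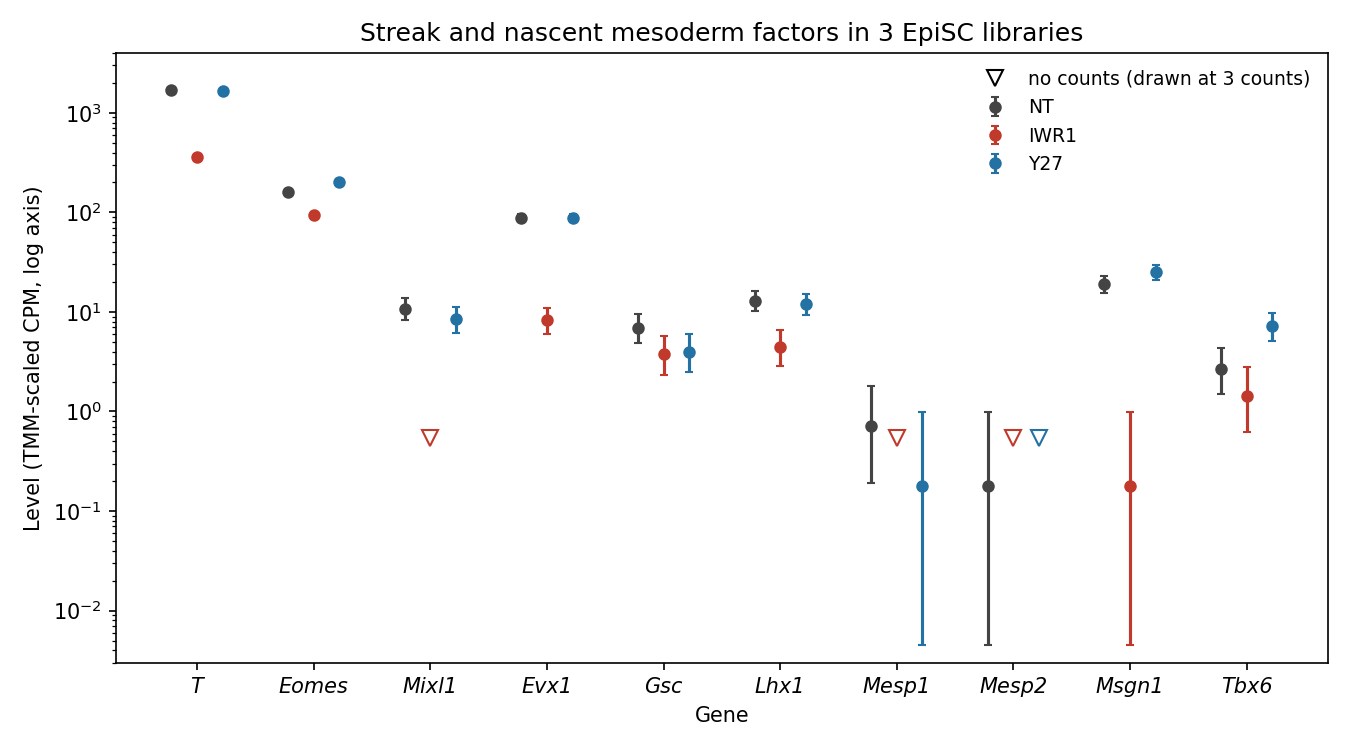
Level of each of the 10 genes in TMM-scaled CPM (log axis) in the NT, IWR1 and Y27 libraries, with exact Poisson 95% intervals that cover counting error only. Open triangles mark libraries with no counts, drawn at 3 counts. T lies at 1688, 364 and 1652 CPM in NT, IWR1 and Y27, and the IWR1 point of Msgn1, at 0.179 CPM, rests on 1 count.

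The second comparison, Y27 over NT, asked the same of cells under Y27 and uses the NT library of the first. Of the 10 genes, 1 (Tbx6) was higher by 2-fold or more and 0 were lower, against 5.58% higher and 1.34% lower among the genes compared. That share is close to the background and is no result about the set. The median log2 difference of the 10 was -0.06, beside -0.02 over all genes compared. Past 2-fold, 173 genes were lower and 723 higher. Among the 12453 genes with a GC content, 161 were lower and 655 higher, and 139 and 173 without the trend with length and GC content, a share of higher genes of 80.3% before and 55.4% after.

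Tbx6, a T-box factor of presomitic mesoderm, had 15 counts in NT, 8 in IWR1 and 40 in Y27, or 2.65, 1.43 and 7.17 CPM. It was highest in Y27, where it was 2.70-fold above NT (1.46 to 5.26), a log2 difference of 1.16. That was 1.39 with the trend removed and 0.67, short of 2-fold, with a pseudocount of 5. Msgn1 was 1.31-fold above NT in Y27 (1.01 to 1.70) and Eomes 1.26-fold (1.15 to 1.38). T, at a log2 difference of -0.03, and Evx1, at 0.00, had intervals that include no difference, with folds of 1.02 lower (0.993 to 1.05) and 1.00 lower (0.882 to 1.14). The sign for T changed with the scaling, from -0.09 by upper quartile to 0.03 by library total, and was 0.15 with the trend removed. Lhx1 was 1.08-fold lower (0.761 to 1.52) and Mixl1 1.28-fold lower (0.862 to 1.92), both with intervals that include no difference. Gsc was 1.75-fold lower (1.01 to 3.10). Mesp1 had 1 count in Y27 and 4 in NT, and the ratio of 3.95 had a range of 0.391 to 194.

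**Figure D3:**
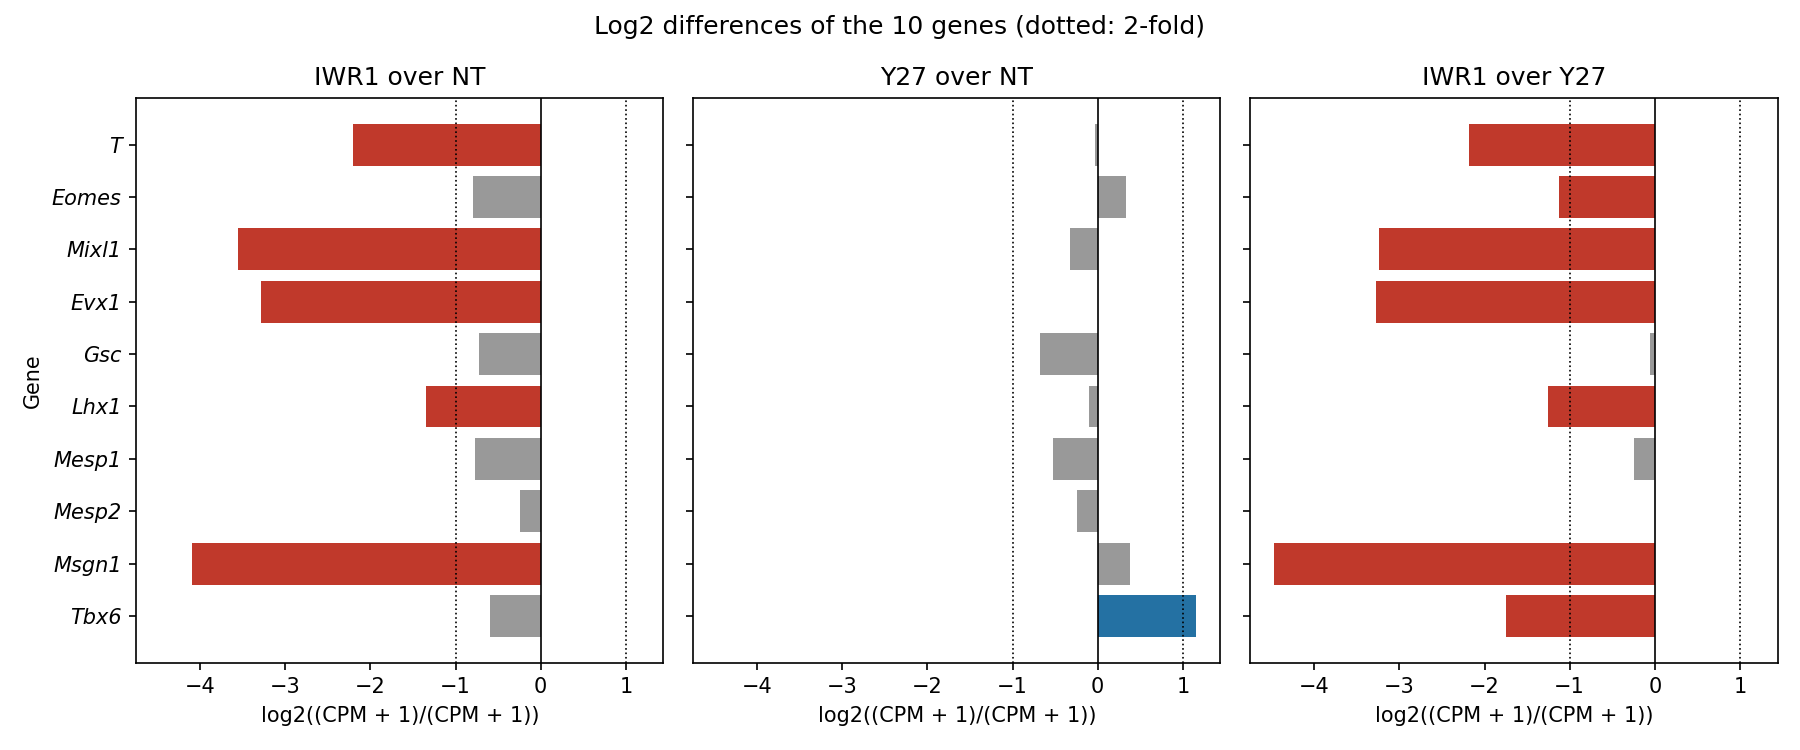
Log2 difference of each of the 10 genes, as log2((CPM + 1)/(CPM + 1)), for IWR1 over NT, Y27 over NT and IWR1 over Y27. Dotted lines mark 2-fold, and bars past it are coloured. The bars of IWR1 over NT all point down, to -4.09 for Msgn1, and in Y27 over NT only Tbx6 passes 2-fold, at 1.16.

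The third comparison set the treated libraries against each other, IWR1 over Y27, after 12 h in both. It shares the IWR1 library with the first comparison and the Y27 library with the second. Of the 10 genes, 7 were lower in IWR1 by 2-fold or more and 0 were higher, against 2.90% lower and 1.38% higher among all genes compared. The 7 were T, Eomes, Mixl1, Evx1, Lhx1, Msgn1 and Tbx6. With a pseudocount of 5 they numbered 5, Lhx1 (-0.85) and Tbx6 (-0.92) falling short of 2-fold. T was 4.53-fold lower (4.32 to 4.76), Evx1 10.7-fold lower (7.92 to 14.9), and Eomes 2.18-fold lower (1.97 to 2.43). Tbx6 was 5.02-fold lower (2.32 to 12.4) and Lhx1 2.69-fold lower (1.68 to 4.44). The interval of Eomes lay apart from those of T and Evx1. Mixl1 was at least 15.7-fold lower, and the ratio for Msgn1 was 140 (24.8 to 5586). Gsc was at 3.75 CPM in IWR1 and 3.94 CPM in Y27, a fold of 1.05 lower with an interval of 0.551 to 2.01.

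**Figure D4:**
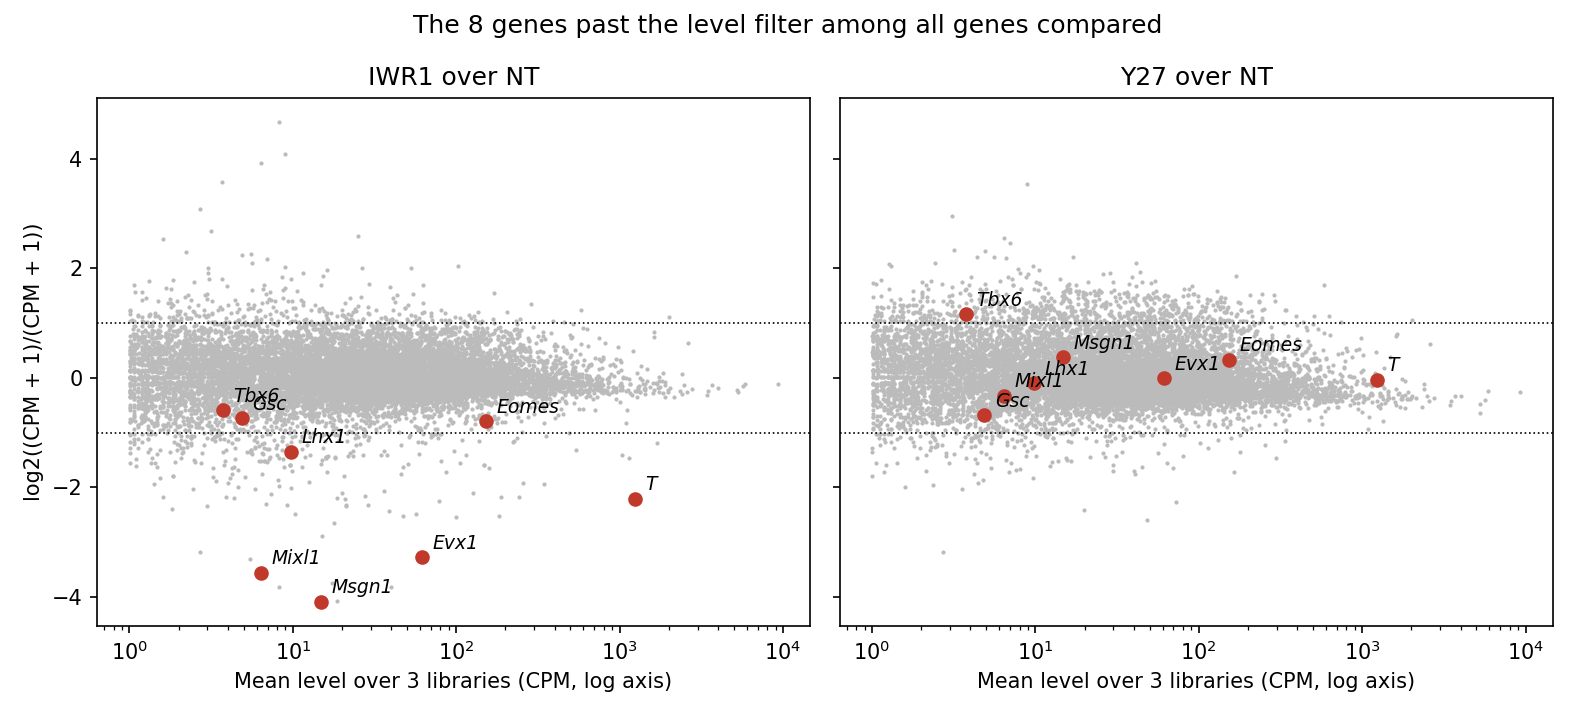
Log2 difference against mean level over the 3 libraries (CPM, log axis) for the 12955 genes compared (grey), with the 8 members past the level filter in red, for IWR1 over NT and Y27 over NT. Dotted lines mark 2-fold. In IWR1 over NT, Msgn1, Mixl1, Evx1 and T lie at the lower edge of the cloud, and in Y27 over NT the members lie within it, with Tbx6 at 1.16.

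The signals that act on the streak were partly lower in IWR1. Of 18 ligands and antagonists, 16 passed the level filter. In IWR1 over NT, 7 were at least 2-fold lower and 1 (Cer1) at least 2-fold higher, with a median of -0.58. Among all genes compared, 2.25% were lower and 2.28% higher. Wnt3, the Wnt ligand needed for streak formation, was at 153 CPM in NT, 51.3 CPM in IWR1 and 113 CPM in Y27, 2.98-fold lower in IWR1 (2.61 to 3.42). Wnt5b was 6.14-fold lower (4.71 to 8.13), Wnt5a 2.11-fold lower (1.55 to 2.90) and Bmp4, on partly fractional counts, 4.98-fold lower (3.58 to 7.28). BMP4 patterns posterior mesoderm, and Fgf17 belongs to the subfamily of Fgf8. Noggin (Nog), a BMP antagonist, was 5.48-fold lower (3.98 to 7.71) and Fgf17 4.81-fold lower (2.10 to 12.9). Wnt3a, which falls outside the rule for named genes and was chosen after its values were seen, had 10 counts in NT and was not listed in IWR1, and was at least 3.30-fold lower. Nodal and its co-receptor gene Tdgf1 stayed short of 2-fold, as did Fgf8 and Wnt8a. Nodal was 1.38-fold lower in IWR1 (1.26 to 1.52) and 1.28-fold lower in Y27 (1.17 to 1.40). Tdgf1 was 1.19-fold higher in IWR1 (1.13 to 1.25). Fgf8 was 1.62-fold lower in IWR1 (1.46 to 1.79) and Wnt8a 1.29-fold lower (1.08 to 1.55). Wnt8a, a Wnt ligand of the posterior epiblast, was 1.63-fold higher in Y27 than in NT (1.40 to 1.90). The 2 signals past 2-fold in Y27 over NT, both lower, were Lefty1 and Lefty2, where 1.34% of all genes compared were lower. These feedback inhibitors of Nodal were named after their values were seen. Their log2 differences were -2.42 and -1.51 on partly fractional counts.

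All of 12 regulators that act upstream of the streak factors passed the level filter. In IWR1 over NT, 4 were at least 2-fold lower and 0 higher, with a median of -0.06. Among all genes compared, 2.25% were lower and 2.28% higher. The 4 were Axin2, Sp5, Sp8 and Lef1, which are Wnt targets themselves. Sp5 was 5.86-fold lower (5.15 to 6.70), Axin2 4.38-fold lower (3.78 to 5.09), Sp8 2.93-fold lower (2.06 to 4.22) and Lef1 2.08-fold lower (1.73 to 2.50), the counts of Sp5, Sp8 and Lef1 being partly fractional. Ctnnb1, which encodes beta-catenin, was at 909 CPM in IWR1 and 868 CPM in NT. Tcf7, a TCF/LEF factor, was 1.30-fold lower (1.16 to 1.46). Lef1, given above, is a TCF/LEF gene as well and shared that direction. Tcf7l1 and Tcf7l2, TCF/LEF genes named after their values were seen, did not. Tcf7l1 was 1.84-fold higher (1.59 to 2.14), and Tcf7l2 1.03-fold higher with an interval of 0.835 to 1.28. Foxh1, the Smad partner in Nodal signalling, was 1.06-fold lower, with an interval of 0.927 to 1.21. In Y27, 0 of the 12 were past 2-fold against NT, and Lef1 and Sp8 were 1.38-fold (1.20 to 1.58) and 1.71-fold higher (1.37 to 2.15).

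Presomitic mesoderm and segmentation genes, several of which act downstream of T, Msgn1 and Tbx6, had 11 of 18 members past the level filter. In IWR1 over NT, 2 were at least 2-fold lower (Cdx2 and Nkx1-2) and 0 higher, with a median of -0.20. Among all genes compared, 2.25% were lower and 2.28% higher. Nkx1-2, a homeobox factor, was at 115 CPM in NT, 18.9 CPM in IWR1 and 167 CPM in Y27. Cdx2, a factor of posterior axis growth, was at 48.3, 2.50 and 68.8 CPM. Both were lowest in IWR1 and highest in Y27. Cyp26a1, which degrades retinoic acid, was 1.21-fold lower in IWR1 (1.05 to 1.40), and Rspo3, a Wnt enhancer, was 1.15-fold lower, with an interval of 0.917 to 1.43. In Y27 over NT, 2 of the 11 were at least 2-fold higher and 1 lower, with a median of 0.49. Of all genes compared, 5.58% were higher and 1.34% lower. The 2 were Dll1 and Hes7 and the 1 was Lfng, genes of the Notch segmentation clock named after their values were seen. Dll1, the Notch ligand gene known as a target of Tbx6, had 27 counts in NT, 13 in IWR1 and 89 in Y27. It shared this order of libraries with Tbx6, and also with Eomes, Msgn1, Cdx2, Nkx1-2, Rspo3, Isl1 and Wnt8a. A link of Dll1 to Tbx6 in these cells was not tested. Dll1 was 3.34-fold higher in Y27 than in NT (2.15 to 5.34). Hes7, with 4, 6 and 15 counts, was 3.80-fold higher (1.21 to 15.7), and Lfng was 2.18-fold lower (1.43 to 3.37). The number higher past 2-fold was 1 with a pseudocount of 5 and with a mean of at least 5 CPM. The number lower was 0 with a pseudocount of 5, by library total, in FPKM, and with the length and GC trend removed.

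Lateral and cardiac mesoderm genes had 13 of 18 members past the filter. In IWR1 over NT, 2 were at least 2-fold lower (Snai1 and Pdgfra) and 1 higher (Mef2c), with a median of -0.44. Among all genes compared, 2.25% were lower and 2.28% higher. Pdgfra and Mef2c were named after their values were seen. Snai1, which represses E-cadherin as cells leave the streak, was at 16.8 CPM in NT, 5.72 CPM in IWR1 and 15.9 CPM in Y27, a fold of 2.94 lower in IWR1 (1.95 to 4.54). Pdgfra had a log2 difference of -1.15 and Mef2c, with 2 counts in NT and 11 in IWR1 and a ratio of 5.55 (1.21 to 51.6), one of 1.13. Isl1 (1.55-fold lower, 1.14 to 2.12) and Hand2 (2.16-fold lower, 1.18 to 4.08, on 37 and 17 counts) stayed short of 2-fold on the log2 scale. Y27 over NT had 0 of the 13 past 2-fold and a median of 0.08.

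Genes of the anterior streak, node and endoderm, which overlap the domain of Gsc and Lhx1, went the other way in part. Of 14 genes, 10 passed the filter. In IWR1 over NT, 3 (Fgf5, Foxj1 and Cer1) were at least 2-fold higher and 0 lower, with a median of 0.48. Among all genes compared, 2.28% were higher and 2.25% lower. At any size, 5 of the 10 were higher and 5 lower. The 5 lower were Nodal (1.38-fold), Foxh1 (1.06-fold), Foxa2 (1.12-fold), Hhex (1.00-fold) and Gata6 (2.64-fold, 0.982 to 8.24). Of these, Foxa2, Hhex and Gata6 were named after their values were seen. Fgf5 and Otx2 are also among the epiblast stem cell markers. Fgf5, of the epiblast, was 3.28-fold higher (2.67 to 4.08), and Otx2, of the anterior epiblast, 2.01-fold higher (1.77 to 2.29), a log2 difference of 0.99. Foxj1, a regulator of motile cilia, was 2.26-fold higher (1.45 to 3.59). Cer1, a secreted inhibitor of Nodal, BMP and Wnt, was not listed in NT. With 7.55 CPM in IWR1 it was at least 14.2-fold above the floor there. The counts of Fgf5 and Cer1 were partly fractional. Sox17, the endoderm factor, was not listed in any library. Y27 over NT had 0 of these 10 past 2-fold and a median of 0.21.

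Few genes of the members' own families passed the level filter. Of 14 other T-box genes, 12 were listed and 3 (Mga, Tbx20 and Tbx3) passed the filter. Mga, which carries a T-box and acts in a repressor complex, was at 97.0 CPM in NT, 196 CPM in IWR1 and 219 CPM in Y27, log2 differences of 1.01 and 1.17. With the trend of length and GC content removed, 0 of the T-box genes were past 2-fold in either comparison. Tbx3 had 8 counts in NT and Y27 and 1 in IWR1, a ratio of 7.92 (1.06 to 352) of NT to IWR1. Tbx20 differed by 1.10-fold (0.592 to 2.06) in IWR1, and Tbx4 had 4, 1 and 7 counts. Of 15 homeobox relatives of Evx1, Gsc and Lhx1, 8 were listed and 4 passed the filter, with 0 past 2-fold in IWR1 over NT and in Y27 over NT. Lhx5 and Lhx6, LIM homeobox genes like Lhx1, were at no more than 2.35 and 1.86 CPM. The counts of Mga, Tbx20, Lhx5 and Lhx6 were partly fractional.

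**Figure D5:**
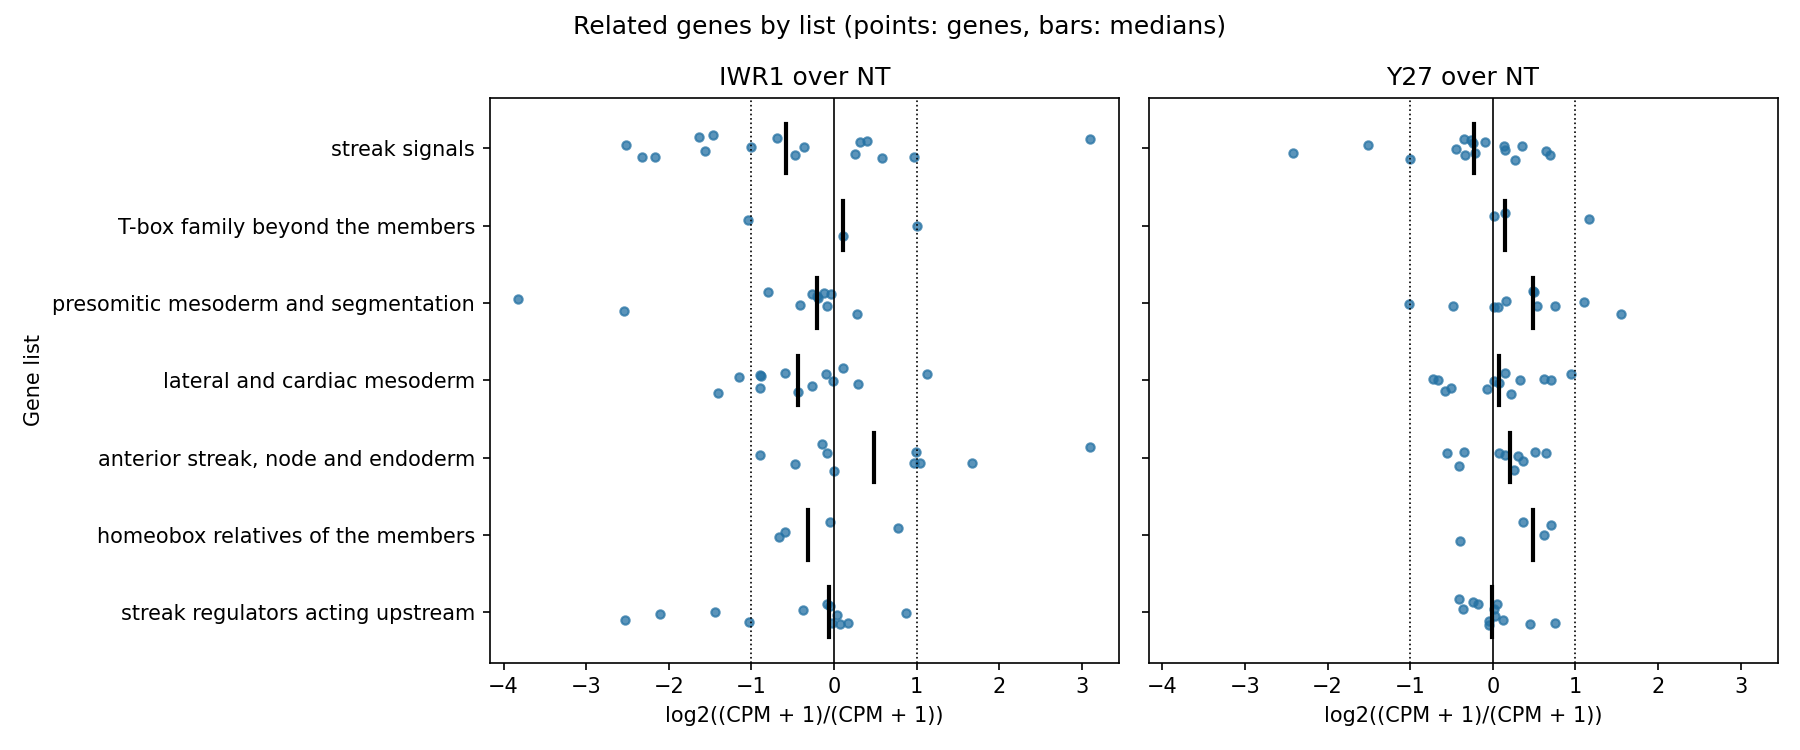
Log2 differences of the related genes past the level filter, by list, for IWR1 over NT and Y27 over NT. Points are genes, spread vertically for clarity, black bars are list medians, and dotted lines mark 2-fold. In IWR1 over NT the streak signal median lies at -0.58 and the anterior streak, node and endoderm median at 0.48.

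Over all related genes together, without the 10 members, 62 of 87 listed genes passed the filter. In IWR1 over NT, 16 were at least 2-fold lower and 5 higher, with a median of -0.19, where 2.25% and 2.28% of all genes compared were past 2-fold. In Y27 over NT, 3 were lower and 3 higher, with a median of 0.06, where 1.34% and 5.58% were.

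Sprr2a1, Axin2, Pdgfrb, Pcdh18, Bmp4, Gm13363 and Gad1 had the patterns most like that of T over the 3 libraries. They had the smallest distances to T in centred log2(CPM + 1) among 10703 genes whose mean reached 5 CPM, from 0.063 for Sprr2a1 to 0.192 for Gad1. Sprr2a1, at 322, 70.7 and 335 CPM in NT, IWR1 and Y27, had fractional counts, as had Bmp4 and Gm13363. Axin2 was at 173, 39.5 and 167 CPM and Gad1 at 11.3, 2.14 and 11.1 CPM. Nearest to Eomes were Ism2, Lrp8, Bahcc1 and Abcc1, at distances of 0.018 to 0.044, with fractional counts for Lrp8 and Bahcc1. Nearest to Mixl1 were Pla2g4b, Evx1, Fam177a and Wnt6, at 0.18 to 0.49, with fractional counts for Pla2g4b and Fam177a. Evx1 is a member itself. With 3 libraries these likenesses are descriptions.

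Epiblast stem cell markers were higher by 2-fold or more in IWR1 than in NT for 3 of 10 genes and lower for 0. The 3 were Utf1, Fgf5 and Foxd3. Of all genes compared, 2.28% were higher and 2.25% lower. The median of the 10 was 0.85, and in Y27 over NT it was 0.13. At any size, 8 were higher in IWR1 and 2 lower, Pou5f1 by 1.11-fold (1.07 to 1.14) and Nanog by 1.31-fold (1.21 to 1.42). The counts of Fgf5, Foxd3, Pou5f1 and Nanog were partly fractional. Markers of other cell types were set beside these values. Fibroblast markers, 8 in all, summed to 25.5 FPKM in NT, 16.4 FPKM in IWR1 and 12.7 FPKM in Y27, with Prrx1 and Postn at 0 in IWR1. Most of that sum was Col1a1, at 16.95, 11.5 and 6.67 FPKM. Pdgfrb, a marker of that list and among the genes nearest to T, was 7.02-fold lower in IWR1 than in NT (3.72 to 14.6) and 1.15-fold lower in Y27, with an interval of 0.819 to 1.62. Extraembryonic endoderm markers summed to 6.86, 3.73 and 8.35 FPKM, with 3, 3 and 4 of 6 listed and Afp and Ttr at 0 throughout. Definitive endoderm and node markers summed to 103, 84.6 and 86.4 FPKM, most of it Nodal at 90.0, 66.3 and 73.5 FPKM. Without Nodal that sum was 13.3, 18.3 and 13.0 FPKM and so highest in IWR1, while the extraembryonic endoderm sum was lowest there and the fibroblast sum highest in NT. Of the 8 endoderm and node markers without Nodal, 6, 4 and 5 were listed in NT, IWR1 and Y27. In NT and IWR1, Cer1 was at 0 and 4.34 FPKM and Chrd at 1.26 and 2.75 FPKM. Foxa2 was at 6.45 and 5.84 FPKM and Hhex at 5.27 and 5.36 FPKM. Trophoblast markers summed to 10.97, 8.36 and 9.12 FPKM, with 4 of 6 listed in each library and Elf5 and Tpbpa at 0. Neural markers summed to 42.3, 47.4 and 30.9 FPKM, nearly all of it Nes. Naive pluripotency markers summed to 7.62, 8.41 and 5.79 FPKM, with Dppa3 at 0 in every library. The part of these markers in the differences of the streak factors was not tested.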

How the data were processed

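RNA-seq tables of 3 mouse libraries, 1 per group, were used. Per the file headers, each deposited table gives genes by Entrez Gene identifier with length, expected count and FPKM. The expected counts deposited by the authors estimate the reads of each gene and carry no scaling. The FPKM deposited by the authors relate them to transcript length and library size. The submitters' processing notes name Bowtie 0.12.2 and mm8, and the sources used here do not name the counting tool.

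A gene absent from 1 table and present in another was taken as 0. Symbols were found for 99.7% of 17209 identifiers in GRCm38 annotation. CPM were computed with edgeR TMM factors (edgeR 4.0.16, R 4.3.3). The 12955 genes whose mean over the 3 libraries reached 1 CPM were compared on the log2 scale, with 1 CPM added to each value and 2-fold as the threshold. The 95% intervals of levels (exact Poisson) and folds (exact conditional binomial, on counts rounded to whole numbers) cover counting error only. A gene at 0 was set to 3 counts for a lower bound, or 0.531 (NT), 0.536 (IWR1) and 0.538 CPM (Y27). Groups of 1 library allow no test. The steps were tested on simulated data.

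The members and gene lists were chosen with earlier results of these data known. Named genes were the 10 members and, of each other list, the 4 with the highest mean FPKM and up to 6 more past 2-fold in IWR1 over NT with at least 30 counts. Also named were the 8 genes nearest to T in pattern and the 4 nearest to Eomes and to Mixl1, among genes averaging 5 CPM or more. Some genes that this rule names are not reported here. Settings tried were pseudocounts of 0.1 and 5, scaling by library total, DESeq2 1.42.0 size factors and upper quartile, the deposited FPKM, thresholds of 1.5-fold and 3-fold, no level filter or 5 CPM, and removal of the trend with transcript length. Removal of the trend with length and GC content was chosen after seeing the data. Promoter sequences are those of RefSeq on GRCm38.p6, and no coordinate was set against the mm8 build of the files. Other computations used Python 3.11.15.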

Additional observations from a re-analysis of the deposited data

How the results depend on the processing

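With 1 library per group, the spread between cultures was not measured for any gene. In addition, Gsc, Lhx1, Tbx6 and the Mesp genes, with few counts, have wide intervals. No log2 difference past 2-fold among the 10 genes changed sign under any setting tried. The count of members at least 2-fold lower in IWR1 than in NT moved from 5 to 8 at a threshold of 1.5-fold. It was 4 at 3-fold and 4 with a pseudocount of 5. In Y27 over NT, the count of members at least 2-fold higher was 0 in place of 1 with a pseudocount of 5, at 3-fold and with a mean of at least 5 CPM, which Tbx6 does not reach, and 1 member was lower at 1.5-fold. Among related genes, those higher in IWR1 than in NT numbered 8 and 2 with pseudocounts of 0.1 and 5, 3 in FPKM, 9 and 2 at 1.5-fold and 3-fold, and 3 at 5 CPM, against 5. Those lower numbered 20 and 10 with pseudocounts of 0.1 and 5, 11 in FPKM, 23 and 8 at 1.5-fold and 3-fold, and 12 at 5 CPM, against 16. In Y27 over NT, related genes higher numbered 7 with a pseudocount of 0.1, 11 at 1.5-fold and 0 at 3-fold, and those lower 6 and 1 at 1.5-fold and 3-fold, against 3 each. The size for genes at or near 0 in IWR1 followed the pseudocount: Mixl1 ranged from -6.77 to -1.66 and Msgn1 from -6.11 to -2.22, and the FPKM put Mixl1 at -2.49. With a pseudocount of 5, Lhx1 was at -0.92 in IWR1 over NT and Tbx6 at 0.67 in Y27 over NT, both short of 2-fold. T in IWR1 ranged from -2.25 to -2.06 and Eomes from -0.86 to -0.66. Over all genes compared, those lower and higher past 2-fold in IWR1 over NT numbered 292 and 295, against 463 and 543 with a pseudocount of 0.1, 98 and 80 with 5, 164 and 152 in FPKM, 183 and 185 at 5 CPM, and 255 and 167 without the length and GC trend, the last over the 12453 genes with a GC content (268 and 270 there with the trend). In Y27 over NT they numbered 173 and 723, against 320 and 1014, 42 and 340, 93 and 498, 96 and 547, and 139 and 173 (161 and 655 over the same genes with the trend), and 210 and 448 without the length trend alone. In IWR1 over Y27 they numbered 376 and 179, against 595 and 311, 146 and 53, 231 and 99, and 224 and 91 under the first 4 of these settings. Members lower in IWR1 than in Y27 numbered 5 at 3-fold and with a pseudocount of 5, and 6 at 5 CPM, against 7. No paired analysis was possible because each group had 1 library.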
